A study of Sus scrofa with 6 samples.

Results

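The interferon-stimulated antiviral effectors are the proteins that a cell makes after interferon has bound its receptor and transcription factors, STAT2 and IRF9 among them, have switched on their genes. They bind or cut viral RNA, block viral entry, budding and replication, or attach the ubiquitin-like protein ISG15 to other proteins. A list of 40 such genes was matched by symbol to the pig Ensembl identifiers of the count table. It found 39 genes, and the symbol RNF213 matched no identifier. These are 39 of 35670 identifiers in all, and 38 had enough reads to be tested. ISG20 did not. The read minimum was reached in every heat library by 35 of the 39, while CMPK2, OAS1 and OASL reached it in fewer.

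Stranded mRNA libraries were sequenced from primary cultures of granulosa cells, the somatic cells around the oocyte, aspirated from pig (Sus scrofa) ovarian follicles of 3 to 6 mm. After growth at 37 °C in medium with serum, plates were assigned to heat (42 °C for 6 h, n = 3 libraries) or control (37 °C for 6 h, n = 3 libraries). Both groups were then detached with trypsin. The labels call the libraries of a group biological replicates but name no animals or cultures, so p-values measure only the spread between these libraries, which may be technical. No virus or interferon is named among the treatments, and the labels name no genetic change in either group.

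Deposited counts summed to between 20411952 and 29606378 in the heat libraries and between 18711440 and 22599356 in the controls. Heat 1 and heat 2 were close to each other (Pearson r = 0.991 across genes in log2 CPM), as were control 2 and control 3 (r = 0.990), and each pair still differed by more than counting noise. Heat 3 and control 1 stood apart from their own groups, with correlations of at most 0.916 and 0.905. The chaperone gene HSPA6, a check of the labels, was at 156, 149 and 501 CPM in heat, against 0.267, 0.873 and 0.347 CPM in control. Values of this kind are reads scaled to the library size (CPM) with TMM factors, and run from library 1 to library 3 within each group. Granulosa cell markers differed in level, and of 8 tested none passed. FSHR, the receptor of follicle-stimulating hormone, was low, at 0, 0.0930 and 0 CPM in heat, against 0.401, 2.14 and 0.744 CPM in control. INHA, the inhibin alpha chain, was low too, at 0, 0 and 0.0611 CPM in heat, against 0, 0.306 and 0.0496 CPM in control. GATA4 was at 82.1, 81.5 and 66.1 CPM in heat, against 38.3, 9.56 and 10.7 CPM in control. FST was at 51.5, 54.4 and 20.7 CPM in heat, against 36.3, 8.47 and 8.93 CPM in control. NR5A1 was at 5.59, 5.35 and 8.22 CPM in heat, against 2.47, 5.41 and 5.90 CPM in control. INHBA, an inhibin beta chain, was at 183, 154 and 182 CPM in heat, against 387, 209 and 198 CPM in control, and CYP11A1, which starts steroid synthesis, at 69.6, 68.6 and 57.6 CPM in heat, against 29.0, 44.0 and 36.3 CPM in control. The stromal collagen gene COL1A2 was at 41605, 37308 and 14618 CPM in heat, against 25719, 2817 and 2737 CPM in control. COL3A1, another collagen gene, was at 24429, 22987 and 7507 CPM in heat, against 14795, 4194 and 3453 CPM in control. The contractile genes ACTA2 and TAGLN of the same stromal list had another order: ACTA2 was at 3584, 3479.7 and 8973 CPM in heat, against 5599.8, 5547 and 5648 CPM in control, and TAGLN at 918, 828 and 2693 CPM in heat, against 837, 1945 and 2204 CPM in control. None of the 9 stromal markers tested passed.

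Antiviral effectors either fell in heat or did not pass the test. Of 38 tested, 18 fell, 20 did not pass the test and none rose (edgeR quasi-likelihood test, Benjamini-Hochberg adjusted p below 0.05 over all genes). Over all 14242 tested genes, 4.32% were called lower and 6.71% higher. The median log2 fold change of the 38 was -2.30, against 0.05 for all tested genes. In 19 of the 38 every heat library lay below every control library, which held for 16.8% of all tested genes. All 39 genes together took 0.0507, 0.0565 and 0.0795% of the counts in heat 1, 2 and 3, and 0.0703, 0.352 and 0.362% in control 1, 2 and 3. Most of the difference between the groups therefore lay in control 2 and control 3. Those libraries were the highest pair of the 6 for 33 of the 38 genes, against 23.9% of all tested genes. In bulk RNA, fewer cells of a type and less RNA per cell cannot be told apart.

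**Figure D1:**
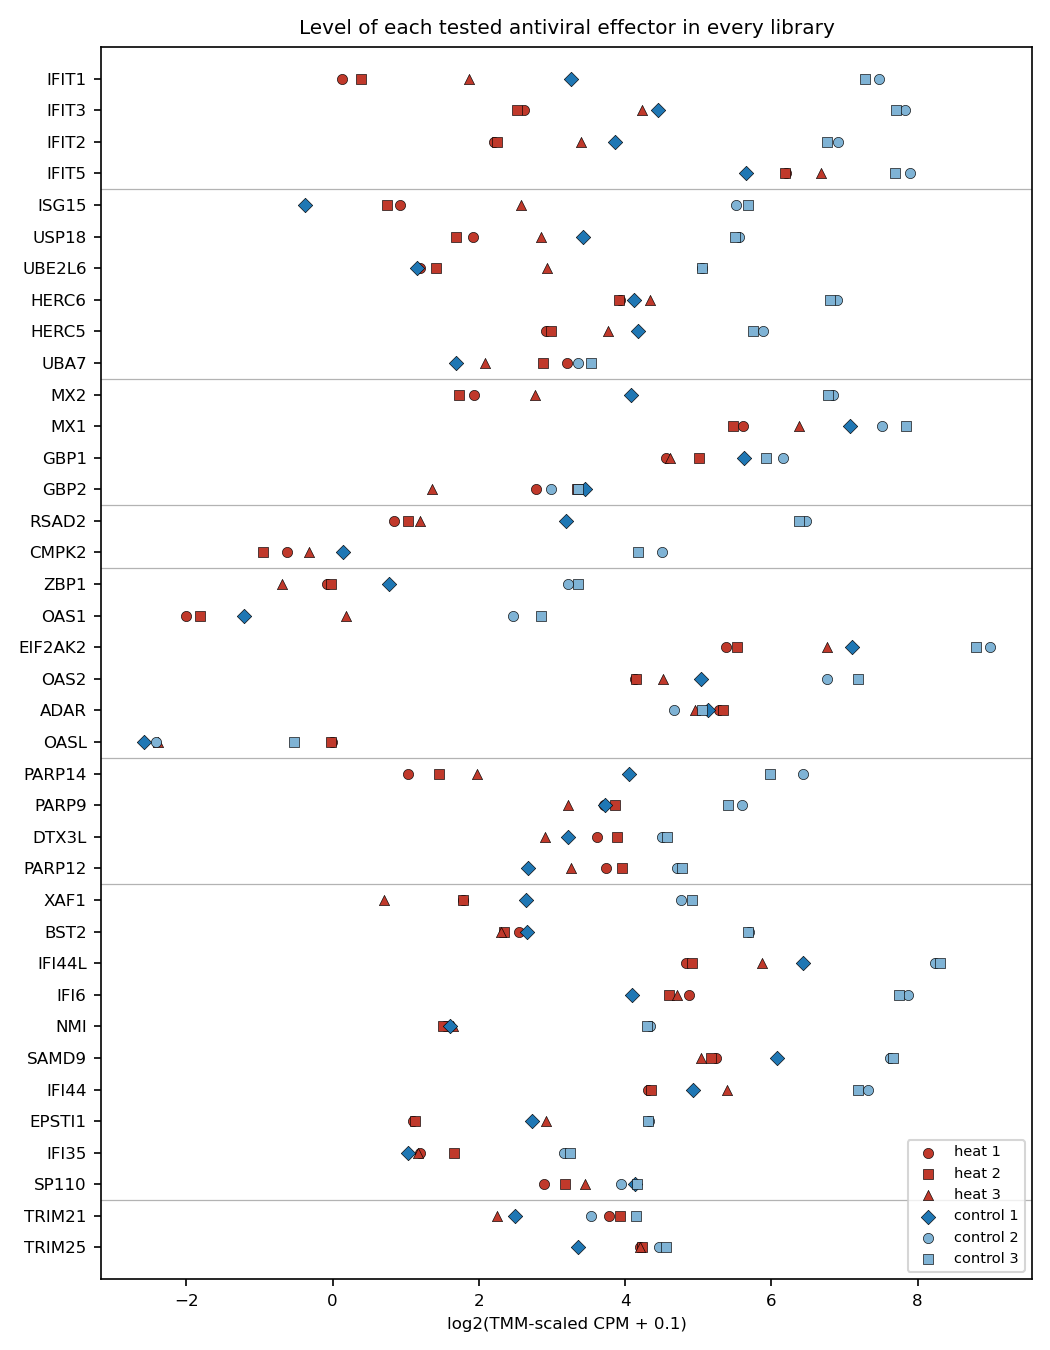
Level of each of the 38 tested antiviral effectors in every library, as log2 of the TMM-scaled CPM plus 0.1, with grey lines between functional groups. Red symbols are heat libraries, the dark blue diamond is control 1 and pale blue symbols are control 2 and 3, which lie to the right of the other 4 libraries in 33 rows.

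Leaving out any 1 of the libraries that resemble each other ended the calls. Without control 2 or without control 3, and without heat 1 or without heat 2, edgeR called 0 of the 38 genes, and 0 of all tested genes lower. At an unadjusted p below 0.05 these fits held 26, 24, 24 and 24 of the 38, against between 21.1 and 22.04% of all tested genes. With control 2 and 3 summed into 1 library, and heat 1 and 2 likewise, edgeR also called 0, with 21 of 38 at an unadjusted p below 0.05 (10.95% of all genes). DESeq2 on all 6 libraries called 28 lower, when 9.32% of the genes it gave an adjusted p were called lower. Limma-voom called 12 lower, against 4.39% of all genes, and lost the calls of IFIT2, IFIT3, CMPK2, OAS2, ZBP1 and BST2, at adjusted p between 0.0511 and 0.106. Without control 1 edgeR called 31 lower, when 12.3% of all genes were called lower, and without heat 3 it called 19, when 17.7% were. With both of these libraries left out it called 34 lower and 2 higher (ADAR and OASL), when 38.4% of all tested genes were called lower and 41.2% higher. The median log2 fold change lay between -2.96 and -1.94 in all alternatives tried.

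**Figure D2:**
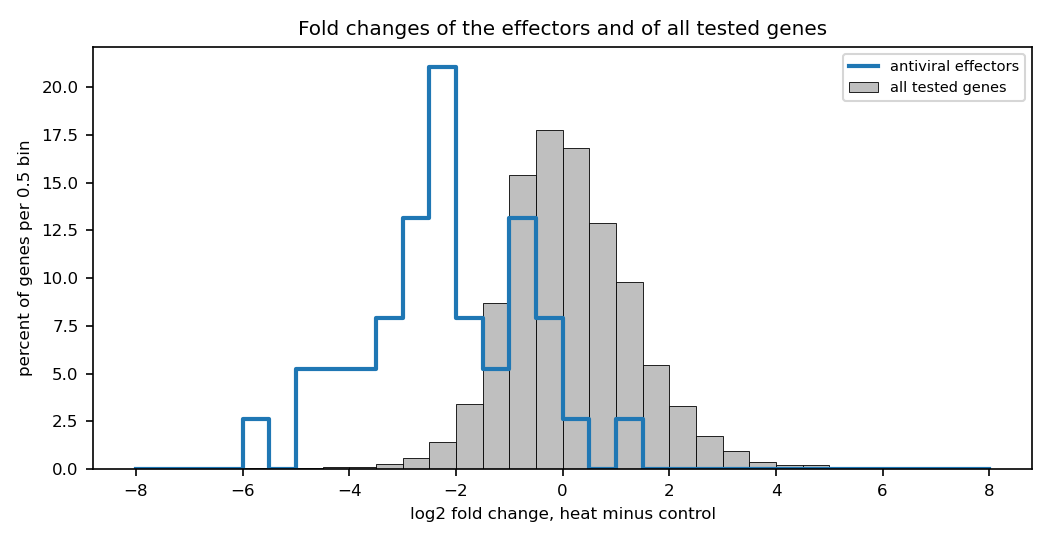
Distribution of the log2 fold change, heat minus control, in bins of 0.5, as the percent of the 38 antiviral effectors (blue line) and of all 14242 tested genes (grey bars). The effectors centre on a median of -2.30 and all genes on 0.05, and 0.0351% of all genes lie outside the plotted range.

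The IFIT proteins bind viral RNA that lacks the marks of host mRNA, and IFIT1, IFIT2 and IFIT3 act together in a complex in human cells. IFIT1 was at 0.997, 1.21 and 3.55 CPM in heat, against 9.48, 178 and 155 CPM in control. Every heat library lay below every control, and control 1 lay closer to heat than to the other controls. The log2 fold change of IFIT1 was -5.87 ± 1.14 (SE), 58.4-fold lower in heat (edgeR adjusted p = 0.0325), the largest fall among the 38. IFIT3 was at 6.03, 5.67 and 18.8 CPM in heat, against 21.8, 227 and 209 CPM in control, a log2 fold change of -3.90 ± 0.93 by edgeR (adjusted p = 0.0420). IFIT2 was at 4.54, 4.65 and 10.5 CPM in heat, against 14.4, 120.1 and 108 CPM in control, with a log2 fold change of -3.62 ± 0.80 by edgeR (adjusted p = 0.0384). For both genes heat 3 came close to control 1 without reaching it. IFIT5, which binds RNA with triphosphate ends, did not pass. It was at 73.3, 72.6 and 102 CPM in heat, against 50.3, 237 and 206 CPM in control, so control 1 was the lowest of all 6 libraries (log2 fold change -0.99 ± 0.55, edgeR adjusted p = 0.235). Without control 1, edgeR called IFIT5 lower as well.

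On Sscrofa11.1, by the RefSeq annotation, IFIT2 lies on chromosome 14 at 101193421 to 101204292, IFIT3 at 101214730 to 101225169 and IFIT1 at 101237403 to 101249486. All 3 lie inside the annotated span of LIPA, the gene of lysosomal acid lipase, at 101131372 to 101254739, so the division of reads between LIPA and these genes is uncertain. LIPA was at 80.8, 82.3 and 47.1 CPM in heat, against 79.1, 69.9 and 62.5 CPM in control (log2 fold change -0.0095 ± 0.32, edgeR adjusted p = 0.987). It did not show the high level of IFIT1, IFIT2 and IFIT3 in control 2 and 3. IFIT family members also resemble each other in sequence, and the sources used here do not say how the counting treated reads shared by similar genes.

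RSAD2 encodes viperin, which makes a nucleotide that ends the copying of viral RNA, and CMPK2 is a nucleotide kinase encoded beside it. RSAD2 was at 1.70, 1.95 and 2.20 CPM in heat, against 9.08, 88.9 and 83.4 CPM in control. The heat libraries lay close together and all below control 1. RSAD2 fell by 30.9-fold, a log2 fold change of -4.95 ± 0.83 by edgeR (adjusted p = 0.0276). CMPK2 was at 0.549, 0.418 and 0.703 CPM in heat, against 1.00, 22.7 and 18.0 CPM in control. It fell with a log2 fold change of -4.62 ± 1.02 by edgeR (adjusted p = 0.0384), but in CPM control 1 lay only just above the heat libraries. In reads before scaling, control 1 had 15, below heat 3, and heat 1, 2 and 3 had 11, 9 and 23. The 2 genes lie on chromosome 3, RSAD2 at 128880853 to 128897809 and CMPK2 at 128903395 to 128917873, with 5585 bases between them. ISG20, an exonuclease of viral RNA, had 0, 0 and 4 reads in heat and 1, 5 and 13 reads in control. ISG20 stayed under the read minimum and was not tested.

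The MX proteins and the guanylate-binding proteins (GBP) are dynamin-like GTPases. MX1 blocks influenza viruses, MX2 acts at nuclear pores in human cells, and GBP proteins attack the compartments in which pathogens live. MX2 was at 3.74, 3.21 and 6.69 CPM in heat, against 16.9, 115 and 109 CPM in control, a log2 fold change of -4.14 ± 0.75 by edgeR (adjusted p = 0.0302). MX1 was at 48.7, 44.2 and 83.3 CPM in heat, against 135, 183 and 229 CPM in control, a log2 fold change of -1.63 ± 0.38 by edgeR (adjusted p = 0.0414). Both fell, and in MX1 control 1 lay nearer to the other controls than it did in MX2, at -0.60 against -2.72 log2 units relative to their mean. GBP1 was at 23.4, 32.0 and 24.4 CPM in heat, against 49.5, 71.1 and 61.0 CPM in control. It fell with a log2 fold change of -1.19 ± 0.30 by edgeR (adjusted p = 0.0460), the smallest fall among the 18, and control 1 was among the high libraries. GBP2 was at 6.78, 10.0 and 2.48 CPM in heat, against 10.9, 7.82 and 10.1 CPM in control (log2 fold change -0.58 ± 0.50, edgeR adjusted p = 0.429). Its groups overlapped, and heat 3 was the lowest library. With scaling by library totals alone, edgeR called neither MX1 nor GBP1, and GBP1 was also lost with no filter (adjusted p = 0.0636) and with a minimum of 10 CPM in 3 libraries (adjusted p = 0.0571). MX2 and MX1 lie on chromosome 13 at 204798633 to 204821612 and 204843049 to 204868927, and GBP2 and GBP1 on chromosome 4 at 127387222 to 127408729 and 127425699 to 127442132. Members of each pair are similar in sequence, so the division of reads between them is uncertain.

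Proteins that sense or process double-stranded RNA form the next group. EIF2AK2 encodes PKR, the kinase that stops translation when double-stranded RNA is present. It was at 41.4, 46.2 and 109 CPM in heat, against 137, 507 and 445 CPM in control. Heat 3 lay between the other heat libraries and control 1, and the groups did not overlap (log2 fold change -2.47 ± 0.62, edgeR adjusted p = 0.0458). OAS2 and OAS1 make the oligoadenylates that activate RNase L. OAS2 fell, at 17.4, 17.6 and 22.8 CPM in heat, against 32.6, 108 and 145 CPM in control (log2 fold change -2.30 ± 0.53, edgeR adjusted p = 0.0413). OAS1 had 3, 4 and 34 reads in heat and 5, 125 and 143 reads in control. Control 1 lay among the heat libraries and heat 3 above it, and OAS1 did not pass (log2 fold change -3.15 ± 1.11, edgeR adjusted p = 0.0944). OAS1 reached the read minimum in 1 heat library and 2 controls, so its test rests on few reads.

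ZBP1, a sensor of Z-form nucleic acid that triggers cell death, was at 0.848, 0.883 and 0.520 CPM in heat, against 1.60, 9.21 and 10.1 CPM in control. It fell with a log2 fold change of -3.23 ± 0.71 by edgeR (adjusted p = 0.0384), and heat 3 was the lowest library. OASL, an OAS relative that acts with the sensor RIG-I, had 18, 19 and 3 reads in heat and 1, 2 and 12 in control. Its high libraries were heat 1, heat 2 and control 3, a pattern unlike that of OAS1 and OAS2 (log2 fold change 1.24 ± 1.04, edgeR adjusted p = 0.419). ADAR, which converts adenosine to inosine in double-stranded RNA, was at 39.0, 40.3 and 30.9 CPM in heat, against 35.2, 25.2 and 33.2 CPM in control. The groups overlapped, and the log2 fold change was 0.24 ± 0.29 (edgeR adjusted p = 0.580). OAS2 and OAS1 lie 3385 bases apart on chromosome 14, at 38827667 to 38847697 and 38851083 to 38867427, and OASL lies on the same chromosome at 40900050 to 40917189.

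**Figure D3:**
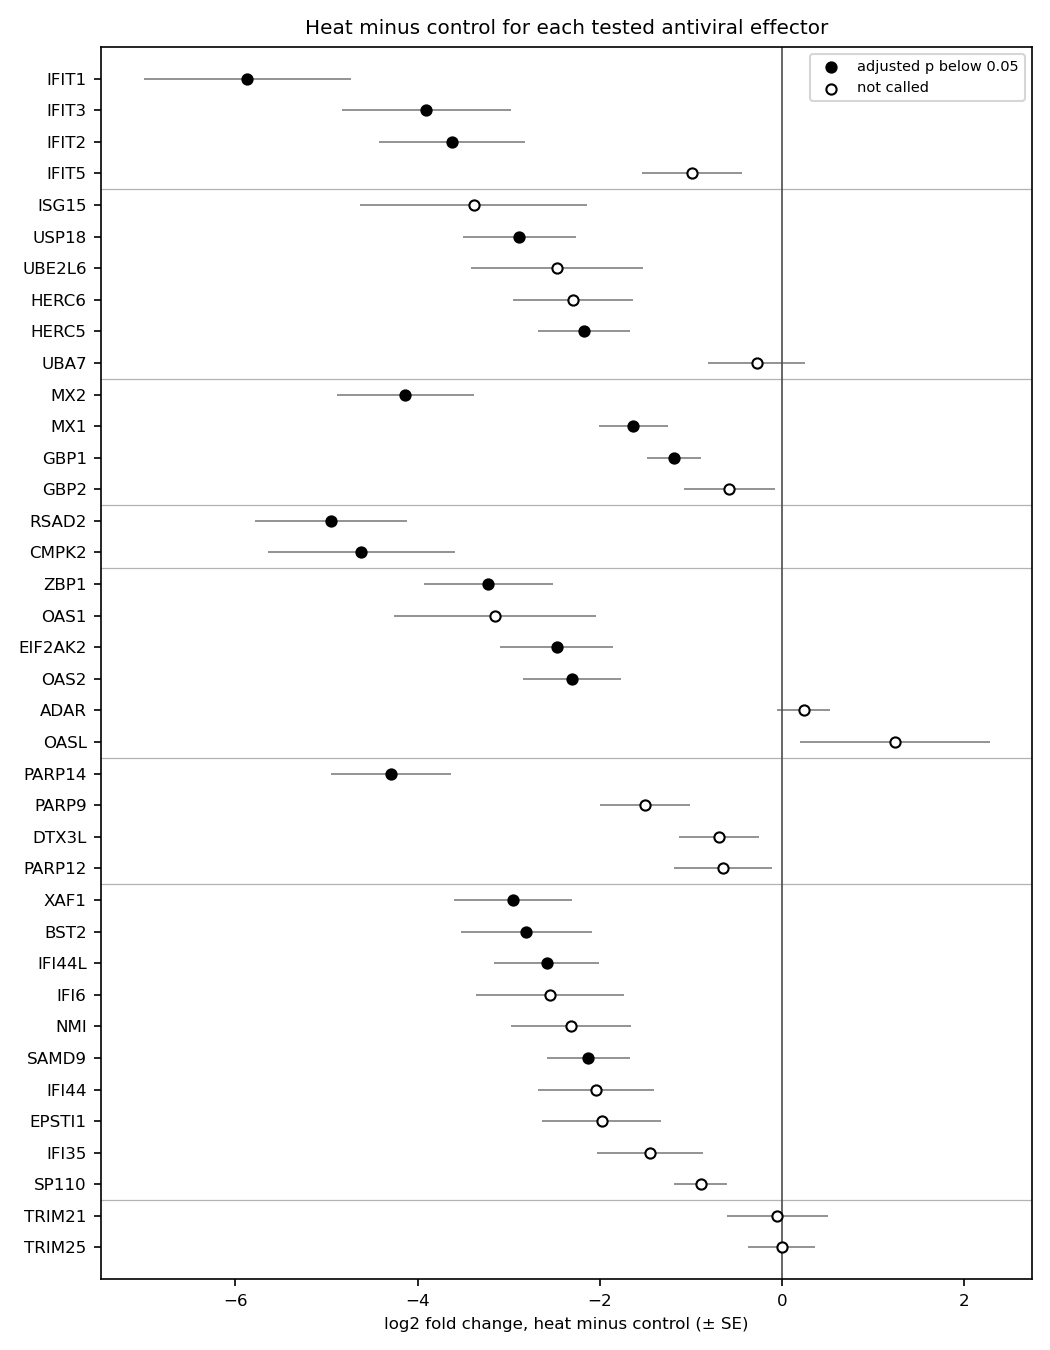
Log2 fold change, heat minus control, with its SE, for each of the 38 tested antiviral effectors, ordered by functional group and size. Filled points are the 18 genes with an adjusted p below 0.05, all left of 0, from -5.87 for IFIT1 to -1.19 for GBP1.

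ISG15 is a ubiquitin-like protein that is joined to target proteins by the activating enzyme UBA7, the conjugating enzyme UBE2L6 and the ligase HERC5, or HERC6 in mouse. USP18 removes it and also dampens the interferon receptor. Of these 6 genes, USP18 and HERC5 fell and 4 did not pass. USP18 was at 3.69, 3.12 and 7.09 CPM in heat, against 10.7, 46.9 and 45.4 CPM in control, a log2 fold change of -2.88 ± 0.62 by edgeR (adjusted p = 0.0381). HERC5 was at 7.48, 7.86 and 13.6 CPM in heat, against 18.0, 58.9 and 53.7 CPM in control, a log2 fold change of -2.17 ± 0.51 by edgeR (adjusted p = 0.0414). The neighbouring HERC6 was at 15.1, 15.0 and 20.2 CPM in heat, against 17.4, 119 and 112 CPM in control. Its fold change was similar in size, at -2.30 ± 0.66 on the log2 scale, but control 1 lay below heat 3 and it did not pass (edgeR adjusted p = 0.0594). HERC5 lies on chromosome 8 at 130532256 to 130591158 and HERC6 at 130594941 to 130665591, 3782 bases apart.

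ISG15 itself was at 1.80, 1.58 and 5.87 CPM in heat, against 0.668, 45.7 and 51.2 CPM in control. Control 1, with 10 reads, was the lowest of all 6 libraries, and control 2 and 3 had 1046 and 1032 reads. Its log2 fold change of -3.38 ± 1.25 was larger in size than that of USP18, but it did not pass (edgeR adjusted p = 0.105). UBE2L6 was at 2.19, 2.56 and 7.52 CPM in heat, against 2.14, 33.1 and 33.1 CPM in control. Here too control 1 was the lowest library, and the fold change did not pass (log2 -2.47 ± 0.94, edgeR adjusted p = 0.113). UBA7 was at 9.13, 7.25 and 4.13 CPM in heat, against 3.14, 10.1 and 11.5 CPM in control, with control 1 the lowest and heat 1 close to control 2 (log2 fold change -0.28 ± 0.53, edgeR adjusted p = 0.729). UBA7 overlaps TRAIP in the annotation, so its reads are uncertain. Both ISG15 and UBE2L6 were called lower without control 1. ISG15 lies on chromosome 6 at 63363201 to 63364211.

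Enzymes that attach ADP-ribose, and the ubiquitin ligase DTX3L that pairs with PARP9, gave 1 call in 4. PARP14 was at 1.94, 2.65 and 3.82 CPM in heat, against 16.6, 86.3 and 63.3 CPM in control. Its heat libraries all lay below control 1, and its log2 fold change was -4.30 ± 0.66 (edgeR adjusted p = 0.0276). PARP9 was at 13.0, 14.4 and 9.20 CPM in heat, against 13.1, 48.4 and 42.2 CPM in control, with control 1 among the heat libraries (log2 fold change -1.50 ± 0.50, edgeR adjusted p = 0.0807). DTX3L was at 12.2, 14.8 and 7.43 CPM in heat, against 9.21, 22.6 and 23.7 CPM in control, and PARP12 at 13.3, 15.4 and 9.50 CPM in heat, against 6.28, 26.0 and 27.4 CPM in control. In both, control 1 lay below at least 2 of the heat libraries, and neither passed (log2 fold changes -0.69 ± 0.44 and -0.65 ± 0.53, edgeR adjusted p = 0.296 and 0.411). PARP14, DTX3L and PARP9 are neighbours on chromosome 13, at 137809499 to 137865383, 137950266 to 137961381 and 137960987 to 138000862. The spans of DTX3L and PARP9 overlap by 395 bases. The libraries were stranded, but the sources used here do not say whether the counting used strand, so reads in the overlap are uncertain.

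Of 10 effectors outside these groups, 4 fell. XAF1, which promotes cell death by opposing XIAP, was at 3.34, 3.35 and 1.53 CPM in heat, against 6.14, 27.0 and 30.1 CPM in control (log2 fold change -2.95 ± 0.64, edgeR adjusted p = 0.0381). XAF1 lies within the annotated span of FBXO39, at 4.89, 7.49 and 0.550 CPM in heat, against 4.34, 8.95 and 7.24 CPM in control, so its reads may be divided. BST2, tetherin, holds budding virus at the cell surface. It was at 5.73, 4.98 and 4.86 CPM in heat, against 6.21, 51.5 and 51.0 CPM in control, with control 1 close to the heat libraries (heat mean minus control 1 of -0.26 log2 units). BST2 fell (log2 fold change -2.81 ± 0.72, edgeR adjusted p = 0.0474). BST2 was not called without heat 3.

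IFI44L, a repressor of some viruses whose mechanism is not settled, was at 28.5, 30.2 and 58.8 CPM in heat, against 85.9, 302 and 315 CPM in control (log2 fold change -2.58 ± 0.58, edgeR adjusted p = 0.0388). SAMD9, which restricts poxviruses, was at 37.9, 36.0 and 32.8 CPM in heat, against 67.4, 197 and 203 CPM in control (log2 fold change -2.13 ± 0.45, edgeR adjusted p = 0.0375). Both fell with no overlap of the groups. IFI44, beside IFI44L on chromosome 6 (IFI44 at 134634679 to 134649857, IFI44L at 134660230 to 134679212), was at 19.7, 20.3 and 41.9 CPM in heat, against 30.4, 161 and 146 CPM in control. Heat 3 lay above control 1, and IFI44 did not pass (log2 fold change -2.04 ± 0.64, edgeR adjusted p = 0.0722).

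IFI6, a membrane protein that restrains cell death, was at 29.3, 24.1 and 26.1 CPM in heat, against 17.0, 233 and 215 CPM in control. NMI, a partner of STAT proteins, was at 2.79, 2.74 and 3.03 CPM in heat, against 2.94, 20.2 and 19.6 CPM in control. In IFI6 control 1 was the lowest of the 6 libraries, in NMI it lay among the heat libraries, and neither passed (log2 fold changes -2.55 ± 0.82 and -2.32 ± 0.66, edgeR adjusted p = 0.0758 and 0.0588). IFI35, which binds NMI, was at 2.19, 3.07 and 2.14 CPM in heat, against 1.94, 8.86 and 9.37 CPM in control, and EPSTI1 at 2.04, 2.09 and 7.49 CPM in heat, against 6.54, 20.0 and 19.7 CPM in control. Neither passed (log2 fold changes -1.45 ± 0.58 and -1.98 ± 0.66, edgeR adjusted p = 0.127 and 0.0811). SP110, a nuclear body protein, was at 7.33, 8.93 and 10.9 CPM in heat, against 17.4, 15.3 and 17.8 CPM in control. It was the only gene of the 38 whose groups did not overlap and which was not called (log2 fold change -0.89 ± 0.29, edgeR adjusted p = 0.0765). Its span overlaps that of SP140, a related gene, by 1239 bases.

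The ubiquitin ligases TRIM21, a cytosolic antibody receptor, and TRIM25, which modifies RIG-I, had fold changes near 0. TRIM25 was at 18.3, 18.7 and 18.4 CPM in heat, against 10.1, 21.9 and 23.6 CPM in control, a log2 fold change of -0.0072 ± 0.36 by edgeR (adjusted p = 0.992). TRIM21 was at 13.6, 15.2 and 4.65 CPM in heat, against 5.54, 11.4 and 17.6 CPM in control, a log2 fold change of -0.052 ± 0.56 by edgeR (adjusted p = 0.956). TRIM25 was lowest in control 1 and TRIM21 in heat 3, the groups overlapped in both, and each changed sign under some settings.

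Libraries of the same group differed in these genes. Control 1 was the lowest control for 35 of the 38, against 46.1% of all tested genes, and at least 2-fold below the mean of control 2 and 3 (on the log2 CPM scale) for 33, against 16.1%. The median difference, control 1 minus the mean of control 2 and 3, was -2.12 log2 units for the effectors and -0.03 for all genes. The widest gaps were those of ISG15 (-6.00), CMPK2 (-4.22), IFIT1 (-4.11), UBE2L6 (-3.90) and OAS1 (-3.89). GBP2 (0.29), ADAR (0.28) and SP110 (0.081) were the genes in which control 1 was not below that mean. Within heat, heat 3 was the highest library for 22 of the 38, against 46.6% of all genes, and the median difference, heat 3 minus the mean of heat 1 and 2, was 0.40 log2 units. OAS1 (2.13), EPSTI1 (1.81) and ISG15 (1.75) were higher in heat 3, and OASL (-2.43), GBP2 (-1.70) and TRIM21 (-1.61) lower.

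**Figure D4:**
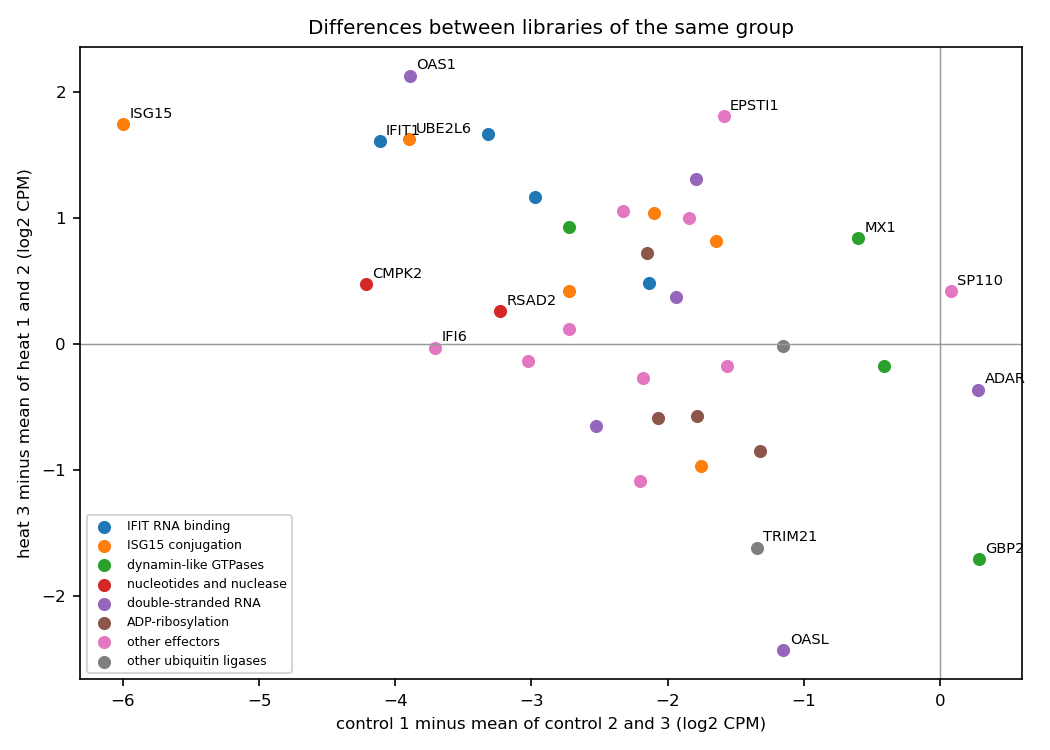
Each point is 1 of the 38 tested antiviral effectors. The x axis gives control 1 minus the mean of control 2 and 3 and the y axis heat 3 minus the mean of heat 1 and 2, both in log2 CPM with a prior count of 2, and colours mark functional groups. Of the 38 points, 35 lie left of 0, with ISG15 at -6.00, and the spread on the y axis runs from -2.43 for OASL to 2.13 for OAS1.

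Set against control 1 alone, the heat level was less far away. The median of heat mean minus control 1 was -0.77 log2 units over the 38, against 0.04 for all tested genes, while that of heat mean minus the mean of control 2 and 3 was -2.73, against 0.03. Each of these contrasts uses the same heat libraries, and the first has a single control. The 18 genes that were called all had control 1 above every heat library. Of the other 20, control 1 lay above every heat library in GBP2 and SP110. PARP14 (-2.57), IFIT1 (-2.47) and RSAD2 (-2.18) lay furthest below control 1 on the log2 scale. ISG15 (1.81) and OASL (1.83) lay furthest above it. The place of heat 3 beside control 1 depended on the scaling. With TMM factors heat 3 lay below control 1 in 24 of the 38 genes, and with library totals alone in 16. Groups without overlap numbered 19 with TMM factors, 20 with edgeR's relative log expression (RLE) factors and 14 with library totals alone. Scaling by totals moved the median log2 fold change of all tested genes to 0.17.

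Of 12 listed interferon ligand genes, 6 matched no identifier and were not measured here. Of the 6 that matched, IFNG, IFNK and IFN-DELTA-1 had no reads, IFN-ALPHA-8 had 2 reads, all in heat 1, and IFNB1 had 2, 3 and 3 reads in heat and 1, 4 and 9 in control. A count of 0 allows up to 3 reads in a library, for counting error only. IFNE, an interferon made by the epithelium of the reproductive tract, was at 15.4, 18.2 and 11.2 CPM in heat, against 18.0, 36.1 and 41.0 CPM in control (log2 fold change -1.09 ± 0.39, edgeR adjusted p = 0.0965). It was the 1 ligand gene with enough reads to be tested, and was highest in control 2 and 3.

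Of 30 tested genes of interferon receptors, RNA sensors and signalling, 1 fell, 3 rose and 26 did not pass, near the shares of all tested genes called lower (4.32%) and higher (6.71%). Their median log2 fold change was -0.41. The sensor gene IFIH1, which encodes MDA5, was at 18.0, 15.9 and 12.6 CPM in heat, against 31.6, 97.6 and 86.9 CPM in control and fell (log2 fold change -2.22 ± 0.46, edgeR adjusted p = 0.0355). SOCS1 and SOCS3, which inhibit JAK kinases, and TICAM1, an adaptor of Toll-like receptors, rose. SOCS1 was at 3.29, 3.12 and 1.13 CPM in heat, against 0.467, 0.131 and 0.347 CPM in control, a log2 fold change of 3.01 ± 0.66 by edgeR (adjusted p = 0.0384). SOCS3 was at 29.4, 40.9 and 7.64 CPM in heat, against 4.21, 2.23 and 4.61 CPM in control, a log2 fold change of 2.82 ± 0.63 by edgeR (adjusted p = 0.0391). TICAM1 was at 7.13, 7.72 and 6.23 CPM in heat, against 3.07, 1.92 and 2.48 CPM in control, a log2 fold change of 1.50 ± 0.35 by edgeR (adjusted p = 0.0405). In both SOCS genes heat 3 was the lowest heat library and still above every control. Without control 2, control 3, heat 1 or heat 2, or with the alike libraries summed, edgeR called 0 of these genes. At an unadjusted p below 0.05 these 5 fits held between 5 and 13 of the list, in both directions. Of all tested genes they held between 10.95 and 22.04%. Without control 1 edgeR called 7 of 30 higher and 8 lower, when 19.6% of all genes were called higher and 12.3% lower. With heat 3 left out it called 6 higher and 8 lower, when 18.4% of all genes were called higher and 17.7% lower.

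The transcription factor STAT2 was at 42.0, 43.1 and 40.9 CPM in heat, against 51.1, 57.3 and 57.1 CPM in control, without overlap, and did not pass (log2 fold change -0.39 ± 0.26, edgeR adjusted p = 0.310). IRF9, its DNA-binding partner, was at 11.6, 13.3 and 11.6 CPM in heat, against 12.2, 15.2 and 19.9 CPM in control, and IRF7, which amplifies interferon production, at 2.39, 2.65 and 1.59 CPM in heat, against 2.14, 2.45 and 4.26 CPM in control. Their groups overlapped (log2 fold changes -0.38 ± 0.30 and -0.42 ± 0.44, edgeR adjusted p = 0.392 and 0.512). The receptor chains IFNAR1 (171, 177 and 136 CPM in heat, 207, 89.8 and 70.1 CPM in control) and IFNAR2 (57.8, 57.0 and 33.3 CPM in heat, 69.5, 57.6 and 51.6 CPM in control) did not pass either (log2 fold changes 0.40 ± 0.45 and -0.27 ± 0.33, edgeR adjusted p = 0.552 and 0.576). IFNAR1 was highest in control 1 and lowest in control 2 and 3, the reverse of the order of the controls in most effectors.

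Of 33 tested genes from a wider list of interferon-induced genes, 2 fell, 31 did not pass and none rose by edgeR, when 4.32% of all tested genes were called lower and 6.71% higher. DESeq2 called 7 lower and 2 higher of 35, when 9.32% of all genes with an adjusted p were called lower and 12% higher. At an unadjusted p below 0.05 edgeR held 11 of the 33, 8 of them lower, against 33.9% of all tested genes. The median log2 fold change of the 33 was -0.16. DDX60, a helicase that aids RIG-I, was at 6.48, 5.25 and 7.03 CPM in heat, against 16.3, 82.3 and 67.0 CPM in control (log2 fold change -3.14 ± 0.59, edgeR adjusted p = 0.0315). The chemokine gene CXCL10 was at 1.05, 1.58 and 1.16 CPM in heat, against 2.00, 14.3 and 10.0 CPM in control (log2 fold change -2.80 ± 0.69, edgeR adjusted p = 0.0442). Both fell and had control 2 and 3 as their highest libraries. That order held for 13 of the 33 genes, against 23.9% of all tested genes. Without control 2, control 3, heat 1 or heat 2, edgeR called 0 of these genes. At an unadjusted p below 0.05 these fits held 8 or 9 of them, against between 21.1 and 22.04% of all tested genes. Without control 1 it called 10 lower and 1 higher of 34 tested, when 12.3% of all genes were called lower and 19.6% higher. With heat 3 left out it called 5 lower and 2 higher of 34, when 17.7% of all genes were called lower and 18.4% higher.

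**Figure D5:**
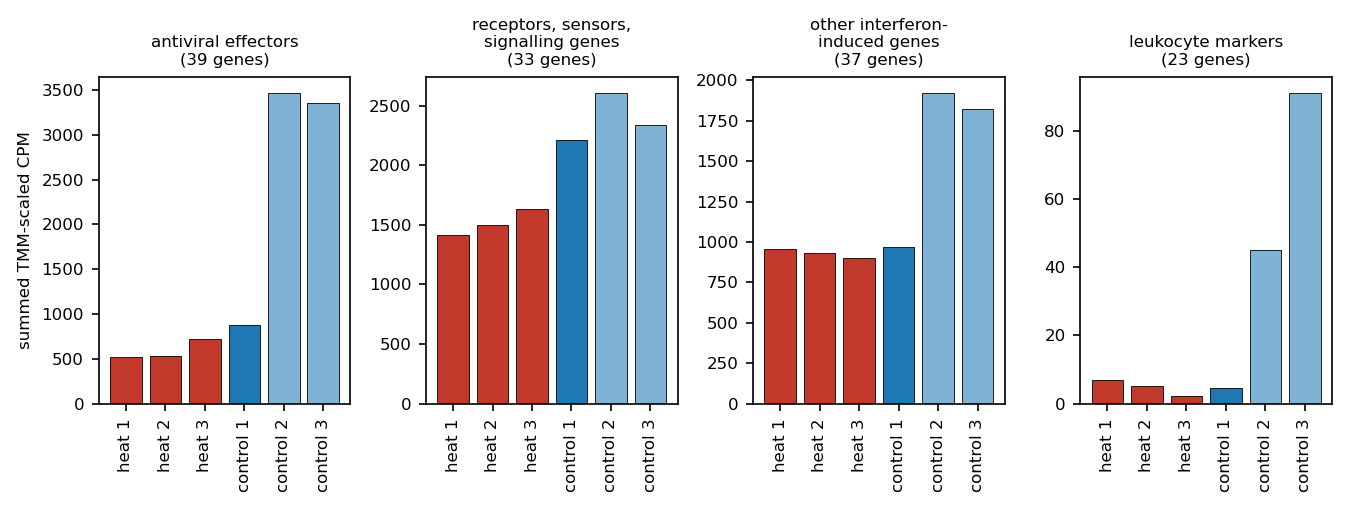
Summed TMM-scaled CPM per library for the 39 antiviral effectors, 33 genes of receptors, sensors and signalling, 37 other interferon-induced genes and 23 leukocyte markers, on separate linear axes that start at 0. Heat libraries are red, control 1 dark blue and control 2 and 3 pale blue. In every panel the sums are highest in control 2 and 3. In the signalling panel control 1, at 2213 CPM, is close to control 3, at 2339 CPM. The 3 heat libraries and control 1 are alike in the leukocyte panel, between 2.35 and 6.83 CPM.

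The summed leukocyte markers were higher in control 2 and control 3 as well. The summed level of the 23 markers was 6.83, 5.02 and 2.35 CPM in heat 1, 2 and 3 and 4.54, 45.0 and 91.1 CPM in control 1, 2 and 3. Of the 23, 12, 10 and 14 were at 0 reads in the heat libraries and 14, 4 and 2 in the controls. The macrophage product LYZ was at 0.848, 0.186 and 0.244 CPM in heat, against 0.467, 26.3 and 54.1 CPM in control. LYZ fell (log2 fold change -6.01 ± 1.48, edgeR adjusted p = 0.0447), with control 1 among the heat libraries. It was the 1 call among 4 tested leukocyte markers, when 4.32% of all tested genes were called lower. LYZ alone made up 26.3 and 54.1 CPM of the sums in control 2 and 3. Of the defining markers, PTPRC had 0, 0 and 0 reads in heat and 0, 35 and 64 in control, TYROBP 0, 0 and 0 reads in the heat libraries, against 0, 10 and 9 reads in the controls, and LAPTM5 0, 0 and 0 reads in the heat libraries, against 1, 34 and 43 reads in the controls. CD68 was at 1.20, 0.511 and 0.275 CPM in heat, against 0.935, 0.655 and 1.74 CPM in control, and CD14 at 2.24, 1.95 and 0.703 CPM in heat, against 1.80, 1.14 and 1.69 CPM in control. These did not set control 2 and 3 apart. Control 1 lay above every heat library for 20 of the 38 effectors with TMM factors, against 28.9% of all tested genes. With library totals alone it did so for 14 of the 38, against 2236 of 14242 tested genes. The summed effectors were at 3469.9 and 3362 CPM in control 2 and 3, and the summed leukocyte markers at 45.0 and 91.1 CPM. The part of leukocytes in the result was not tested. Both stromal collagen genes given above were lowest in control 2 and 3, which ACTA2 and TAGLN were not. The other tested stromal markers, COL1A1, DCN, LUM, PDGFRA and PDGFRB, were also lowest in control 2 and 3. COL1A1 was at 20725, 17944 and 5579 CPM in heat, against 17714, 270 and 387 CPM in control. The summed level of the 11 matched stromal markers was 92427, 83692 and 39748 CPM in heat 1, 2 and 3 and 65555, 14913 and 14551 CPM in control 1, 2 and 3, and their part was not tested either.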

How the data were processed

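The authors deposited raw counts of reads per Ensembl identifier, not normalized, for 6 libraries. Per the submitters' processing notes, FastQC 0.11.4, Trim Galore and STAR were used with Sscrofa11.1. For the counting tool, annotation release and strand setting, nothing was stated in the sources used here. A deposited normalized table holds a signal, the counts of 13298 genes divided by 1 size factor per library by the authors. Multiplied back, 100% of its values were whole within 1e-06.

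Groups came from the labels. Symbols came from the gene name table (15623 identifiers), and coordinates from RefSeq by symbol. Genes were kept by filterByExpr (minimum count 10), and heat was compared with control with edgeR 4.0.16 (R 4.3.3, quasi-likelihood test, two-sided, robust dispersions, TMM factors). The SE came from the test, as the size of the log2 fold change over the root of its F statistic. Log2 CPM used a prior count of 2. In simulated data of 14242 genes the test recovered 2, 38, 90 and 98% of 50 genes changed 2-, 4-, 8- and 16-fold, and called 5 unchanged genes. The simulated libraries were drawn independently of each other, without the close pairs and outlying libraries of the real data. These shares may therefore not hold for the real libraries. Alternatives were other scalings and filters, a replicate block, leaving out libraries, DESeq2 1.42.0 and limma-voom (limma 3.58.1).

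The members and the gene lists were chosen with earlier results of these data known. Full values were to be given for called members, the 6 others with the largest and the 3 with the smallest fold changes, the 4 largest called genes of the signalling and interferon-induced lists, a fixed set of signalling genes (STAT2, IRF7, IRF9, IFNAR1, IFNAR2, and 1 gene that is not reported here) and the 2 highest genes of each marker list. Other members, LIPA, FBXO39, ligands, FSHR, INHA, GATA4, FST and NR5A1 were named after their values were seen. So were the stromal markers beyond COL1A2 and COL3A1, and the leukocyte markers beyond LYZ and CD14. Endothelial markers had 3 tested genes of 7, none called. PECAM1 and ESAM, the highest of them, were at 10.8, 9.90 and 5.23 and 4.39, 5.02 and 2.02 CPM in heat and at 7.74, 8.60 and 9.47 and 1.34, 2.01 and 2.68 CPM in control. DNAJB1 and HSPH1, also checks of the labels, were at 183, 206 and 508 and 1433, 1434 and 1678 CPM in heat and at 9.35, 29.3 and 28.6 and 189, 100.1 and 87.7 CPM in control. Sequences were not used here.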

Additional observations from a re-analysis of the deposited data

How the results depend on the processing

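ISG20, OAS1 and OASL had few reads. ISG20 stayed under the read minimum, while OAS1 was called lower by DESeq2, with the replicate block and without control 1. Members called lower numbered 18 in the main fit, when 4.32% of all tested genes were called lower, and 18 with RLE factors (5.19% of all genes). They numbered 16 with library totals alone (2.92%), 22 with no filter (3.30%) and 12 with limma-voom (4.39%). With a minimum of 10 CPM in 3 libraries, 10 of 22 tested members were called (5.18%). DESeq2 called 28 (9.32% of the genes it gave an adjusted p). Of the 31 present in the normalized table, 15 were called with reads recovered from it (4.92%, added after seeing the data). With the alike libraries summed the number was 0 (0%, added after seeing the data). Without control 1 and heat 3 it was 34, beside 2 higher (38.4 and 41.2%, added after seeing the data). Leaving out 1 library gave between 0 and 31, when between 0 and 17.7% of all tested genes were called lower. The 18 called genes were all called under DESeq2 and without control 1. The direction of TRIM25 turned, to log2 fold changes of 0.055 (library totals), 0.0064 (no filter), 0.12 (10 CPM), 0.079 (replicate block), 0.074 (limma-voom) and 0.13 (libraries summed), and that of TRIM21 to 0.12 (10 CPM). Without 1 library TRIM25 lay between -0.32 and 0.16 and TRIM21 between -0.41 and 0.34. The cause was not tested.

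All genes called higher and lower numbered 956 and 615, and 822 and 739 with RLE factors. They numbered 1583 and 416 with library totals, 1607 and 850 with no filter and 532 and 396 at 10 CPM. They were 2142 and 1668 with DESeq2, 6285 and 5857 without control 1 and heat 3, and 2 and 0 with libraries summed. Higher genes were 60.9% of calls with TMM factors, 52.7% with RLE factors and 79.2% with totals. Leaving out 1 library gave between 0 and 3021 higher (up to 19.6%) and between 0 and 2713 lower (up to 17.7%). Signalling genes called higher and lower were 3 and 1, and 3 and 4 with RLE factors. They were 4 and 3 with no filter, 0 and 1 at 10 CPM, 5 and 7 with DESeq2 and 2 and 2 with limma-voom. Without control 1 and heat 3 they were 9 and 14, and with libraries summed 0 and 0. Without 1 library they were between 0 and 7 and between 0 and 8. Other interferon-induced genes were 0 and 2, and 2 and 2 with totals, 2 and 5 with no filter, 0 and 1 at 10 CPM, 2 and 7 with DESeq2, 0 and 1 with limma-voom, 9 and 16 without control 1 and heat 3, 0 and 0 with libraries summed, and between 0 and 2 and between 0 and 10 without 1 library.

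With the replicate number as a block, 25 members were called lower. All genes numbered 2104 higher and 1300 lower (14.8 and 9.13%), signalling genes 3 and 5 and other interferon-induced genes 1 and 5. Same-numbered libraries did not deviate together in every pair, heat 1, 2 and 3 correlating with the control of their number at 0.30, -0.23 and 0.22. Not every library correlated best with its own number.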

Other observations

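The authors' normalized table lists 31 of the 39 matched effectors. IFIT1, IFIT3, ISG15, CMPK2, OAS1, OASL, UBE2L6 and ISG20 are absent from it. Of the 38 tested effectors 7 are absent, against 7.26% of all 14242 tested genes. IFIT1 and IFIT3 had up to 4066 and 5192 reads in a library. The sources used here do not say by which rule genes were left out of that table.

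NLRC5, which activates genes of MHC class I, was at 9.47, 15.3 and 0.642 CPM in heat, against 0.134, 0.306 and 0.843 CPM in control and did not pass (log2 fold change 4.26 ± 1.14, edgeR adjusted p = 0.0523). It was highest in heat 1 and heat 2, unlike most effectors. B2M, the light chain of MHC class I, was at 193, 169 and 193 CPM in heat, against 211, 1036 and 946 CPM in control (log2 fold change -1.98 ± 0.59, edgeR adjusted p = 0.0651), with the order of libraries seen for the effectors. SP140, the neighbour of SP110, was at 29.5, 37.8 and 43.9 CPM in heat, against 60.8, 137 and 123 CPM in control and fell (log2 fold change -1.53 ± 0.39, edgeR adjusted p = 0.0462). These 3 genes were named after their values were seen.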
